A study of Mus musculus with 3 samples.

Results

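Mitochondria make few of their own proteins, so the genes that bring proteins and metabolites into them and that fuse and divide them were followed as a group in mouse four-cell embryos. Members were taken by gene name alone from the probe annotation of 3 two-colour microarrays: the translocases of the outer membrane (Tomm) and of the inner membrane (Timm), the Slc25 carriers, the mitofusins Mfn1 and Mfn2, Opa1, Dnm1l, Fis1, the metaxins Mtx1 and Mtx2, and the prohibitins (Phb). This name rule found 60 genes on 108 probes, out of 27671 gene names on 41174 probes.

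The embryos came from oocytes given high hydrostatic pressure (HP) or from control oocytes, and each array held the RNA of 1 HP pool, labelled with Cy5, and of 1 control pool, labelled with Cy3. A pressure of 20 MPa was applied for 60 min at 37 °C, and the control oocytes were handled alike without it. Per the sample labels both were fertilised by intracytoplasmic sperm injection and then grown to the four-cell stage, while the title of the series calls the embryos in vitro fertilised. The HP pools held 44, 30 and 37 embryos in replicates 1, 2 and 3, and the control pools 36, 33 and 24. Mouse strain and the age of the donors are not given in the sources used here. The labels name the pools biological replicates.

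Nuclear genes encode nearly all mitochondrial proteins. Preproteins bind receptors such as Tomm20 and Tomm70a, cross the outer membrane through the TOM complex, and are handed to the TIM23 translocase for the matrix or, with small TIM chaperones as escorts, to the TIM22 translocase for carriers. Slc25 carriers then move nucleotides, phosphate and metabolites over the inner membrane. Mitofusins and Opa1 fuse the membranes and Dnm1l divides them. In the oocyte and early embryo mitochondria are inherited from the mother, and their number is shared out among the cells as they divide.

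Each array carried 45018 spots, and 19.1%, 19.9% and 17.5% of its non-control spots were well above background in the HP pools of replicates 1, 2 and 3, against 20.0%, 23.2% and 18.5% in the control pools. Of 11 cleavage-stage embryo markers, 5 were above background in at least 1 HP pool and 6 in at least 1 control pool, and their summed linear signal was 19107 to 34350 in the HP pools and 12770 to 16064 in the control pools. Cumulus cell markers were near background apart from Ptx3 (1 of 11 above background in any pool, sums of 846 to 862 in HP pools and 849 to 867 in control pools). Among 6 sperm markers only Prm1 and Prm2 were above background in any pool, with sums of 481 to 501 in HP pools and 490 to 508 in control pools. The embryo marker sum was higher in every HP pool, and its part in the results was not tested. Bright genes weigh most in such a sum. Oog1, the brightest measured embryo marker in every HP pool, had a mean log2 ratio of HP over control of 1.48. Gdf9 had 0.97, Zscan4c 0.92, Dppa3 0.25 and Zp3 0.02, and 5 of the 11 markers were above background in no pool. After normalization the HP pools of replicates 2 and 3 lay close to each other, with an SD of their log2 difference of 0.231 over tested genes, against 0.463 and 0.548 for the other HP pairs and 0.465 to 0.523 for control pairs. The labels give them as separate pools, and they were counted as such. Whether these HP pools were independent was not tested.

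A gene was tested when 2 or more of the 3 arrays showed its probe well above background in 1 and the same channel. By this filter 34 of the 60 members (56.7%) were measured, against 7248 of 27671 genes in all (26.2%). Among the roles, 4 of 7 Tomm genes, 8 of 12 Timm genes, 15 of 32 carriers, 4 of 5 fusion and fission genes, and 3 of 4 metaxins and prohibitins passed. Of the 26 others, 20 were well above background in no pool: Fis1, Timm13, Timm8a2, Tomm40, Tomm40l, Slc25a1, Slc25a2, Slc25a10, Slc25a13, Slc25a18, Slc25a21, Slc25a22, Slc25a23, Slc25a27, Slc25a29, Slc25a30, Slc25a31, Slc25a34, Slc25a35 and Slc25a37. A further 6 were above background on too few arrays: Phb2, Slc25a15, Slc25a20, Timm50, Timm9 and Tomm34. No change in these 26 could be measured at this signal.

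No member passed an adjusted p of 0.05 in limma's test over all genes, nor did any gene at all (0% called). The lowest adjusted p among members was 0.176, and the lowest over all genes was 0.174. The unadjusted p was under 0.05 for 7 of 34 members (20.6%), beside 18.5% of all tested genes, a share near that background. Of these, 6 were lower in HP pools (17.6% of members, beside 11.3% of genes) and 1 was higher (2.94%, beside 7.26%). None differed 2-fold or more on all 3 arrays, which 0.373% of genes did.

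The direction of the group was weak and mixed. Of the 34 measured members 23 had a mean log2 ratio of HP over control below 0 (51.7% of all tested genes did), and the median was −0.21, against −0.01 over all tested genes. That median was −0.01 on array 1, −0.35 on array 2 and −0.13 on array 3. Members with 1 sign on all 3 arrays numbered 12 (35.3%, beside 48.2% of genes): 9 were lower each time, beside 25% of genes, and 3 higher each time, beside 23.2%. HP and control signals did not overlap in 8 members, with HP below in 7 (13.2% of genes) and HP above in 1 (13.3% of genes). Median centring in place of loess moved the median of all genes to −0.39 and that of the members to −0.89, a difference of −0.50 between them against −0.19 under loess. It put 33 of 34 members below 0, with 16 members lower and 0 higher at an unadjusted p under 0.05, beside 35.1% and 0.635% of genes. At the adjusted threshold it called 1031 genes (14.2%), 7 of them members: Tomm20, Tomm70a, Tomm7, Timm23, Timm17b, Slc25a12 and Slc25a5. Loess adjusts for spot brightness and median centring does not. The dimmest measured member, Slc25a3 (mean log2 signal 6.49), went from −0.18 under loess to −0.33 under median centring. Timm8a1, the brightest (11.80), went from −0.32 to −1.39. The part of brightness in the wider difference and in these calls was not tested. Cy5 marked HP on every array, so dye and treatment cannot be told apart. Per the labels 240 pg of RNA per pool was amplified, and the 2 channels of an array were normalized to each other. A ratio therefore compares shares of the RNA, and neither cell number nor total RNA per cell can be read from it. In pooled embryos, a lower share in every cell and in some cells only cannot be told apart either.

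**Figure D1:**
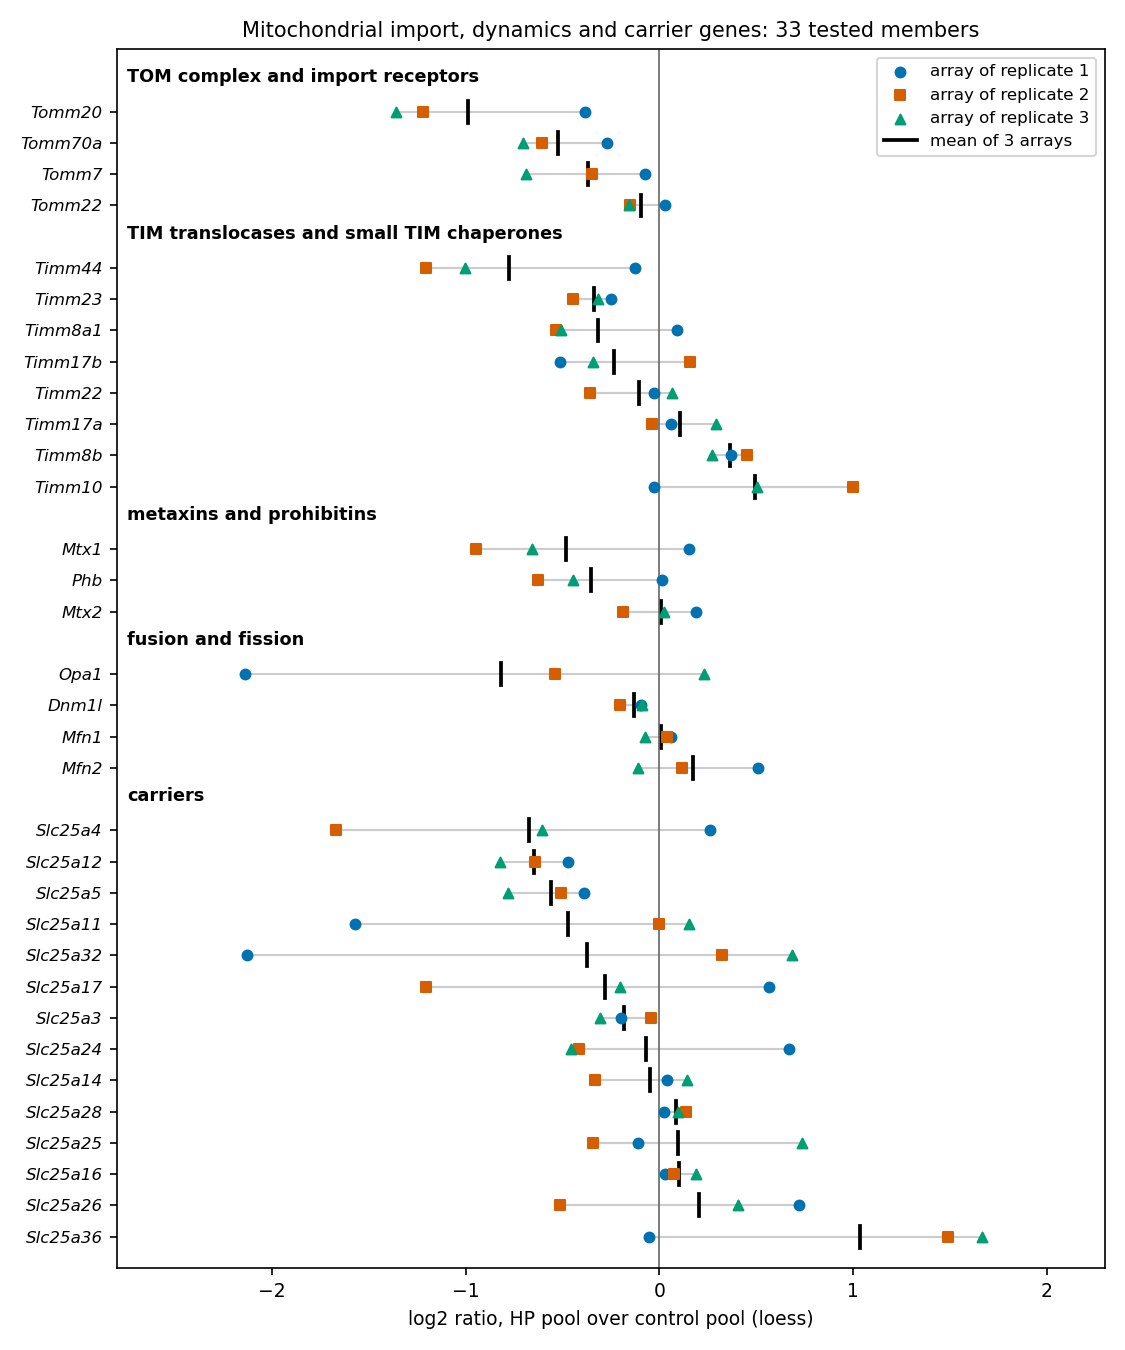
Log2 ratio of HP over control (x axis) for 33 of the 34 measured members (y axis), grouped by role, with 1 point per array and a bar at the mean of 3 arrays. All means drawn but that of Slc25a36 (1.03) lie between −1 and 0.5, and array 1 lies far from arrays 2 and 3 for Slc25a36 and Slc25a32.

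Genes of the outer membrane translocase had the lowest median ratio of the 5 roles when each gene was its brightest probe. With the probes of a gene averaged this rank was lost. The middle Tomm genes were then Tomm7 at −0.37 and Tomm70a at −0.27, beside −0.35 for Phb, the middle gene of its role. All 4 measured Tomm genes had mean ratios below 0 (51.7% of all genes did), with a median of −0.45. At an unadjusted p under 0.05, 2 of the 4 were lower, beside 11.3% of genes. The receptor Tomm20, which binds presequences, gave log2 signals of 7.56, 6.86 and 7.24 in the HP pools of replicates 1, 2 and 3, against 7.95, 8.08 and 8.60 in the control pools. Every HP pool was below every control pool, and replicate 1 differed least. Its mean log2 ratio was −0.99 ± 0.24 (moderated SE, n = 3 arrays), a 1.98-fold lower signal. The limma adjusted p was 0.193.

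A second Tomm20 probe did not show this. It had ratios of −0.28, 0.17 and −0.09 on arrays 1, 2 and 3, with a mean of −0.07 ± 0.14. The first probe lies 2917 bases from it in the array's coordinates, and the first 30 bases of each 60-base probe are shown because only 1 of them carried the difference. Positions are in mm7 on the minus strand, chr8:125521774-125521833 for the first probe and chr8:125524751-125527499 for the second, whose span is longer than the probe.
Tomm20, first probe: tccagctggtgattatttcagaataaccag
Tomm20, second probe: tcttccttgaagagatacagcttggtgaag
With the mean of both probes the Tomm20 ratio was −0.53, and with the scanner's processed log ratio it was −1.82.

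Tomm70a, the receptor for carrier preproteins, read 10.74, 10.62 and 10.37 in the HP pools against 11.01, 11.22 and 11.07 in the control pools. The pools did not overlap. Its mean ratio was −0.53 ± 0.14, with a limma adjusted p of 0.204. As with Tomm20, the other probes of the gene were nearer 0: the means were −0.08 ± 0.39 and −0.21 ± 0.36 for a pair of probes that share 5 bases and lie 1279 and 1334 bases from the brightest probe. They ran opposite ways on the arrays, at −1.11 and −0.95 on array 1 but 0.74 and 0.71 on array 2. Averaging the 3 probes gave −0.27, with an unadjusted limma p of 0.309.
Tomm70a, brightest probe (mm7 chr16:57010434-57010493, plus strand): acccccttttcaactcaaccctgaagacac
Tomm70a, second probe (mm7 chr16:57011828-57011887, plus strand): taaggtgactgggataatggaaagttggag
Tomm70a, remaining probe (mm7 chr16:57011773-57011832, plus strand): ttggacgatgctggttagcctatggctgat

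Tomm7, a small subunit that tunes assembly of the TOM complex, had HP signals of 10.84, 10.71 and 10.85 against control signals of 10.91, 11.06 and 11.54. Its HP pools were all below its control pools, by a mean ratio of −0.37 ± 0.16. The adjusted p was 0.314. Tomm22, the central receptor, had a mean of −0.09, and its pools overlapped.

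The inner membrane translocases split by direction under loess, while under median centring all 8 were below 0, beside an all-gene median of −0.39. Of 8 measured Timm genes, 5 had mean ratios below 0 and 3 above, with a median of −0.17. By unadjusted p under 0.05, 2 were lower, beside 11.3% of genes, and 1 was higher, beside 7.26%. Timm44 anchors the import motor to the TIM23 channel. Its signals were 9.47, 9.21 and 9.15 in the HP pools against 9.59, 10.42 and 10.15 in the control pools, which did not overlap. The mean ratio was −0.78 ± 0.25 with an adjusted p of 0.249, but array 1 contributed only −0.12.

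Timm23, the channel subunit of that translocase, was lower by much the same amount on each array. It read 9.75, 9.40 and 9.43 in the HP pools against 9.998, 9.85 and 9.75 in the control pools. The ratios of −0.25, −0.45 and −0.32 gave a mean of −0.34 ± 0.11, and the limma adjusted p was 0.247. Timm44 was also lower on every array, but the Timm17 genes were not: Timm17b averaged −0.23, and Timm17a averaged 0.10. Timm22, the channel for carriers, averaged −0.11.

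Small TIM chaperones, which shield carriers on their way to Timm22, ran both ways under loess and were all below 0 under median centring. Timm8b was higher on every array under loess, but not under median centring, where its mean was −0.54 beside an all-gene median of −0.39. It read 10.19, 10.07 and 10.04 in the HP pools against 9.82, 9.62 and 9.76 in the control pools, and the mean ratio was 0.36 ± 0.11 with an adjusted p of 0.229. Its second probe, 196 bases away, had ratios of −0.05, 0.35 and −0.37 and a mean of −0.02 ± 0.18. Averaging both gave 0.17, with an unadjusted limma p of 0.267. The 2 probes of Timm8b are shown because their means fell on opposite sides of 0.
Timm8b, first probe (mm7 chr9:50583847-50583906, plus strand): gggaattcagtaattccaacttgtatcaca
Timm8b, second probe (mm7 chr9:50583591-50583650, plus strand): actgcctctctagctgtgtggatcgcttca

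Timm17a also had probes of opposite sign. The brighter had ratios of 0.06, −0.04 and 0.29, and the other 0.01, −0.40 and −0.02 with a mean of −0.13 ± 0.14. The signals of the brighter probe were 12.06, 11.52 and 11.70 in the HP pools against 12.002, 11.56 and 11.41 in the control pools, and they overlapped. Timm10, a partner of Timm9, averaged 0.49, with −0.03 on array 1 and 0.998 and 0.51 on arrays 2 and 3, and under median centring it averaged −0.42. Timm8a1 averaged −0.32.

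**Figure D2:**
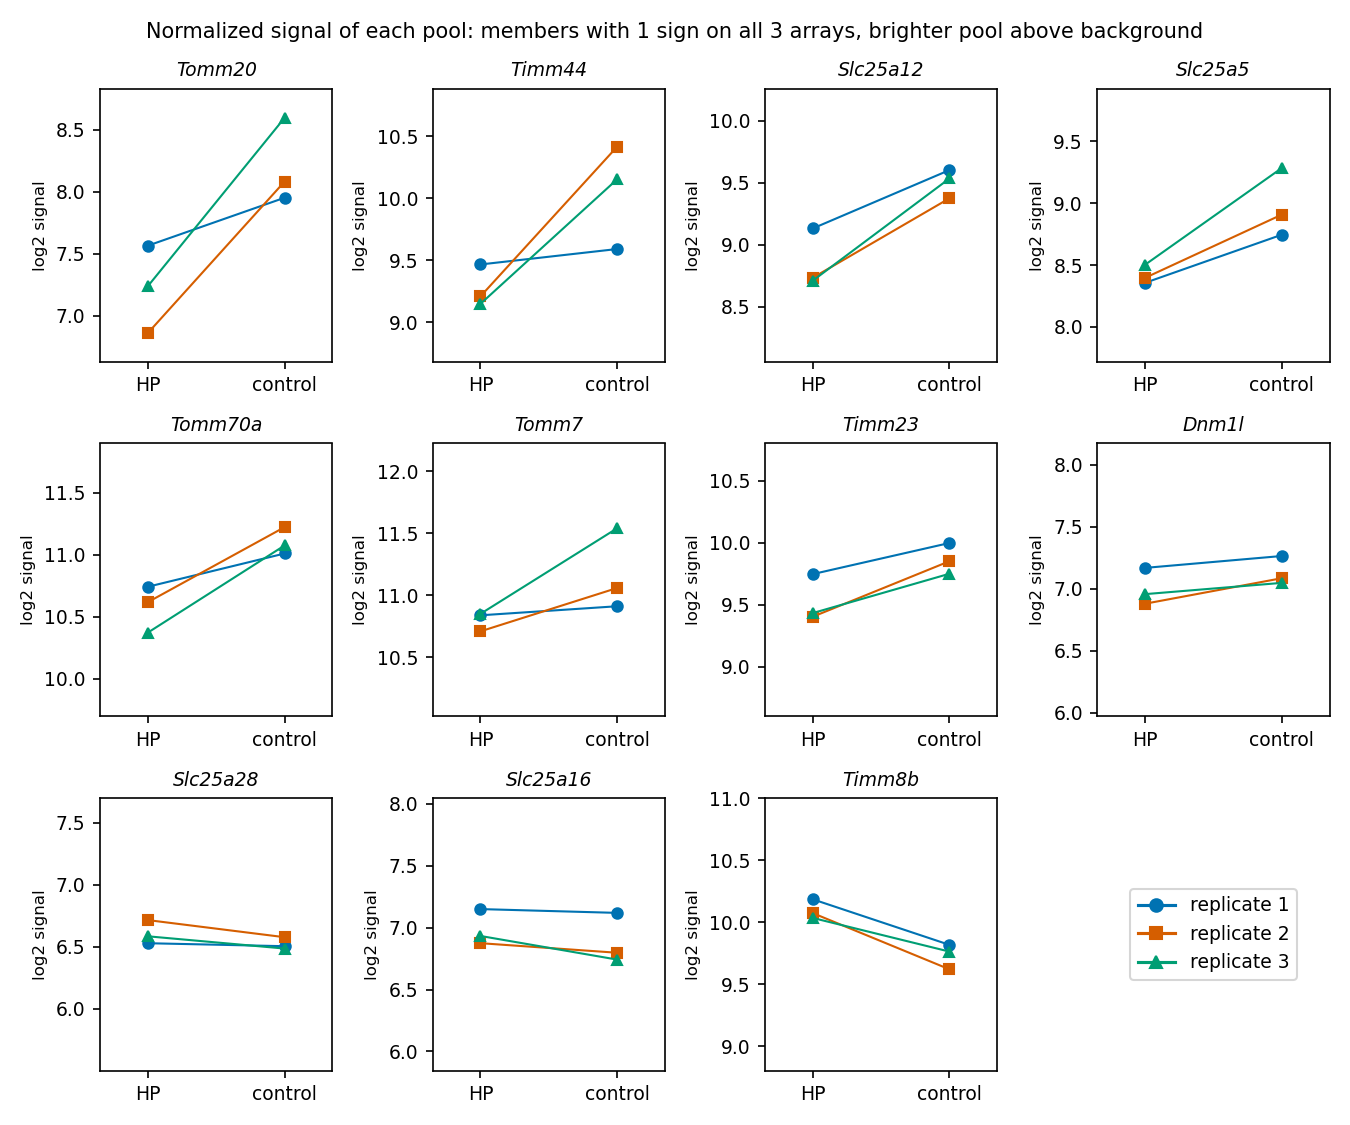
Normalized log2 signal (y axis) of each HP pool and each control pool, HP at left, for the members whose ratio had 1 sign on all 3 arrays and whose brighter pool was above background on all 3. A line joins the pools of 1 array; the lines of Tomm20, Tomm70a and Slc25a12 climb toward control and those of Timm8b descend.

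Carriers ran both ways under loess, while under median centring all but Slc25a36 were below 0, beside an all-gene median of −0.39. Of 15 measured Slc25 genes, 10 had means below 0 and 5 above, with a median of −0.18. At an unadjusted p under 0.05, 2 were lower (13.3%, beside 11.3% of genes) and 0 higher (beside 7.26%), a share near the background. Slc25a12 is an aspartate-glutamate carrier of the malate-aspartate shuttle, and it had the smallest p of the members. Its signals were 9.13, 8.74 and 8.71 in the HP pools against 9.60, 9.38 and 9.54 in the control pools. The ratios of −0.47, −0.64 and −0.82 gave a mean of −0.65 ± 0.12 and a limma adjusted p of 0.176.

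Slc25a5 encodes an adenine nucleotide carrier that trades ADP for ATP. It read 8.36, 8.40 and 8.503 in the HP pools against 8.74, 8.91 and 9.28 in the control pools, without overlap. The mean ratio was −0.56 ± 0.13 and the adjusted p 0.190. A relative, Slc25a4, did not follow on every array: its ratios were 0.26, −1.67 and −0.61, a mean of −0.67 ± 0.41. Its HP pools stayed at 7.37, 7.39 and 7.36 while its control pools read 7.11, 9.06 and 7.97.

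Slc25a3, the phosphate carrier, was not well above background in any HP pool and was so in 2 control pools. Its mean ratio was −0.18 ± 0.12, a 1.13-fold lower signal in HP, with a limma adjusted p of 0.420, and its pools overlapped. The signal in the HP pools lay above the lowest signal called above background. The bound set for a dim gene is therefore the fitted ratio itself here and gives no lower limit. With the scanner's processed log ratio the mean was −1.46. Only 2 carriers were higher on all 3 arrays under loess, both by little. With the scanner's processed log ratio their means were larger, 0.38 for Slc25a16 and 0.51 for Slc25a28. Under median centring Slc25a16 (−0.25) and Slc25a28 (−0.079) were below 0 but above the all-gene median of −0.39. Slc25a16 had signals of 7.15, 6.87 and 6.93 in the HP pools against 7.12, 6.80 and 6.74 in the control pools, a mean ratio of 0.10 ± 0.11. Slc25a28, linked to iron import, was well above background in 2 of 3 control pools. It read 6.53, 6.72 and 6.59 in the HP pools against 6.51, 6.58 and 6.49 in the control pools, a mean ratio of 0.09 ± 0.10.

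The largest mean in the group was that of Slc25a36, a pyrimidine nucleotide carrier, which was singled out after its values were seen. Its signals were 10.51, 12.25 and 12.07 in the HP pools against 10.56, 10.76 and 10.40 in the control pools. Arrays 2 and 3 read 1.49 and 1.66 while array 1 read −0.05, and the mean was 1.03 ± 0.40 with an adjusted p of 0.285. Without replicate 1 the mean was 1.58, and under median centring it was 0.00, beside an all-gene median of −0.39. A second, dimmer probe 2805 bases away averaged 0.09 ± 0.12. That probe was well above background in only 1 of 3 HP pools and 2 of 3 control pools, so its ratio rests partly on signal at background.

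Other carriers turned sign between arrays. Slc25a32, linked to folate and FAD transport, had ratios of −2.13, 0.33 and 0.69. Slc25a11, the oxoglutarate carrier, had −1.57, 0.00 and 0.15. Slc25a32 was well above background in 2 of 3 HP pools and Slc25a11 in 2 of 3 control pools. Slc25a17, a peroxisomal carrier by its known site, had 0.56, −1.21 and −0.20, and its second probe had 0.18, −1.04 and −0.08, so its probes moved alike. Further carriers had means of −0.07 for Slc25a24 (well above background in 1 of 3 HP pools), −0.05 for Slc25a14, 0.09 for Slc25a25 and 0.21 for Slc25a26. With the scanner's processed log ratio these were −1.23, 0.086, 0.59 and 0.67.

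Genes of membrane fusion and division showed no common direction under loess. Of 4 measured members 2 were below 0 and 2 above 0, with a median of −0.06. None had an unadjusted p under 0.05 under loess. Under median centring all 4 were below 0, beside an all-gene median of −0.39. Mfn1 (−0.36) and Mfn2 (−0.03) lay above that median, and Dnm1l (−0.55) and Opa1 (−1.20) below it. Dnm1l, the GTPase that divides mitochondria, read 7.17, 6.88 and 6.96 in the HP pools against 7.26, 7.08 and 7.05 in the control pools. Each array gave a ratio below 0, averaging −0.13 ± 0.11, and its pools overlapped. Mfn1 read 7.07, 6.94 and 6.86 in the HP pools against 7.01, 6.90 and 6.93 in the control pools, and its mean ratio was 0.01 ± 0.11. The mitofusins join outer membranes of neighbouring mitochondria. Mfn2 read 7.07, 6.57 and 6.69 against 6.56, 6.45 and 6.80, a mean of 0.17 ± 0.16. HP and control pools overlapped for both mitofusins. With the scanner's processed log ratio the means were −0.27 for Dnm1l, −0.00034 for Mfn1 and 0.47 for Mfn2.

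Opa1, which fuses the inner membrane, was well above background in only 2 of 3 HP pools and 2 of 3 control pools, so its ratios rest partly on signal at background. It had HP signals of 6.38, 6.96 and 6.57 against control signals of 8.51, 7.51 and 6.34. Its ratios of −2.14, −0.54 and 0.23 gave a mean of −0.82 ± 0.50. The control pool of replicate 1 was the highest of the 6 pools. Without replicate 1 the mean was −0.15. Its SE was the largest of this role, and its pools overlapped.

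Metaxins, which help insert proteins into the outer membrane, and the prohibitin Phb, a scaffold of the inner membrane, were measured on 3 genes. Mtx1 had signals of 7.98, 7.64 and 7.66 in the HP pools against 7.83, 8.59 and 8.32 in the control pools, and its ratios were 0.15, −0.94 and −0.66, a mean of −0.48 ± 0.25. Phb read 7.80, 7.55 and 7.55 against 7.79, 8.18 and 7.997, a mean of −0.35 ± 0.17. In both genes arrays 2 and 3 were lower in HP and array 1 was near 0 or above. Mtx2 read 7.22, 6.81 and 6.82 in the HP pools against 7.03, 6.999 and 6.79 in the control pools, a mean of 0.01 ± 0.13.

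**Figure D3:**
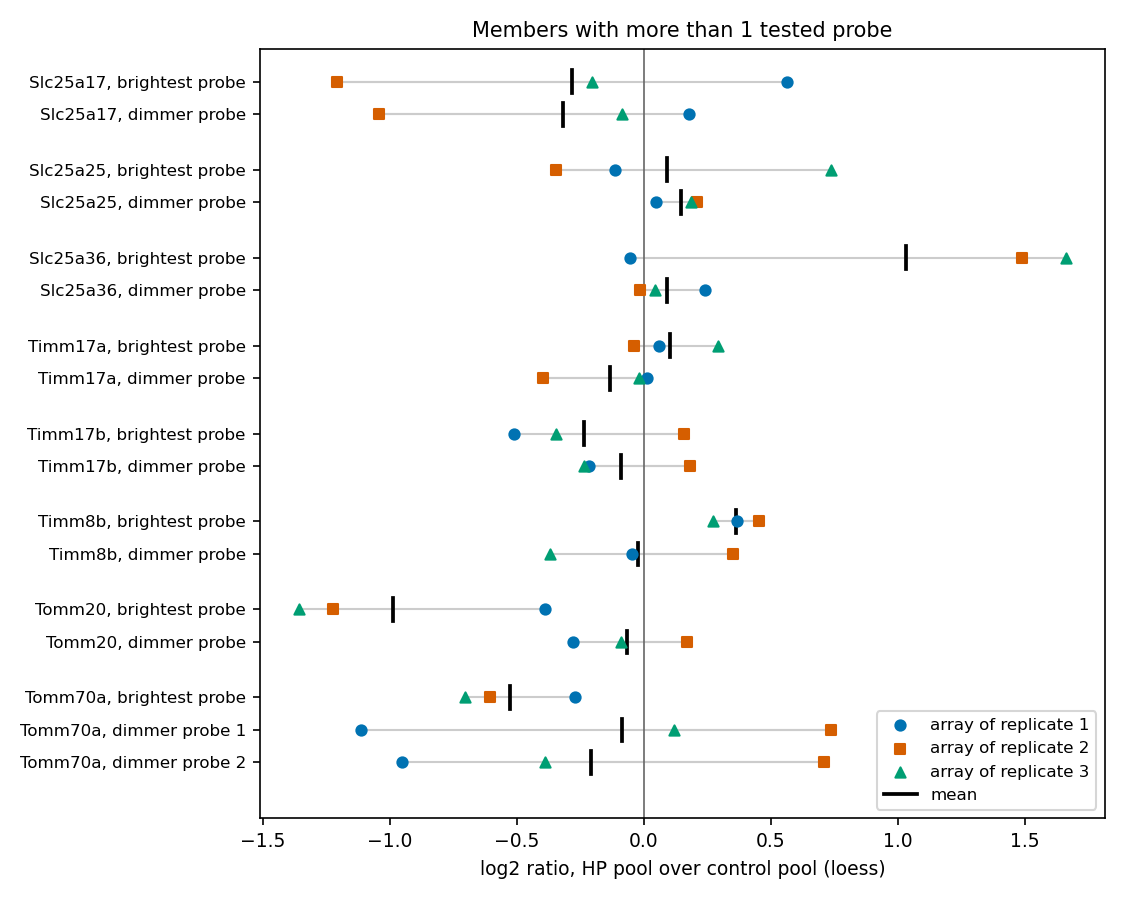
Log2 ratio of HP over control (x axis) for the 8 members with more than 1 tested probe (y axis), with 1 point per array and a bar at the mean of each probe. For Tomm20, Tomm70a and Slc25a36 the brightest probe lies away from 0 while the other probes have means near 0. The dimmer Slc25a36 probe was well above background in only 1 of 3 HP pools and 2 of 3 control pools. For Slc25a17 and Timm17b the probes lie together.

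Array 1 stood apart from arrays 2 and 3 for these genes. Over the 34 members Pearson's r between ratios was −0.12 for arrays 1 and 2 and −0.13 for arrays 1 and 3, and 0.75 for arrays 2 and 3. Over all 7248 genes it was 0.23, 0.22 and 0.65 for the same pairs. These are descriptions across genes, which are not independent replicates, and the close HP pools of replicates 2 and 3 enter the last value. The HP pools of replicates 2 and 3 differed with an SD of 0.202 over the members, against 0.585 and 0.688 for the other HP pairs, and control pools 2 and 3 differed with an SD of 0.508. Without replicate 1, 15 members had an unadjusted p under 0.05, beside 24.8% of genes. Without replicate 2 there were 3, beside 9.7% of genes, and without replicate 3 there were 0, beside 10.4%. Counting replicates 2 and 3 as 1 replicate left 2, Slc25a12 and Slc25a5, beside 11.9% of genes.

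**Figure D4:**
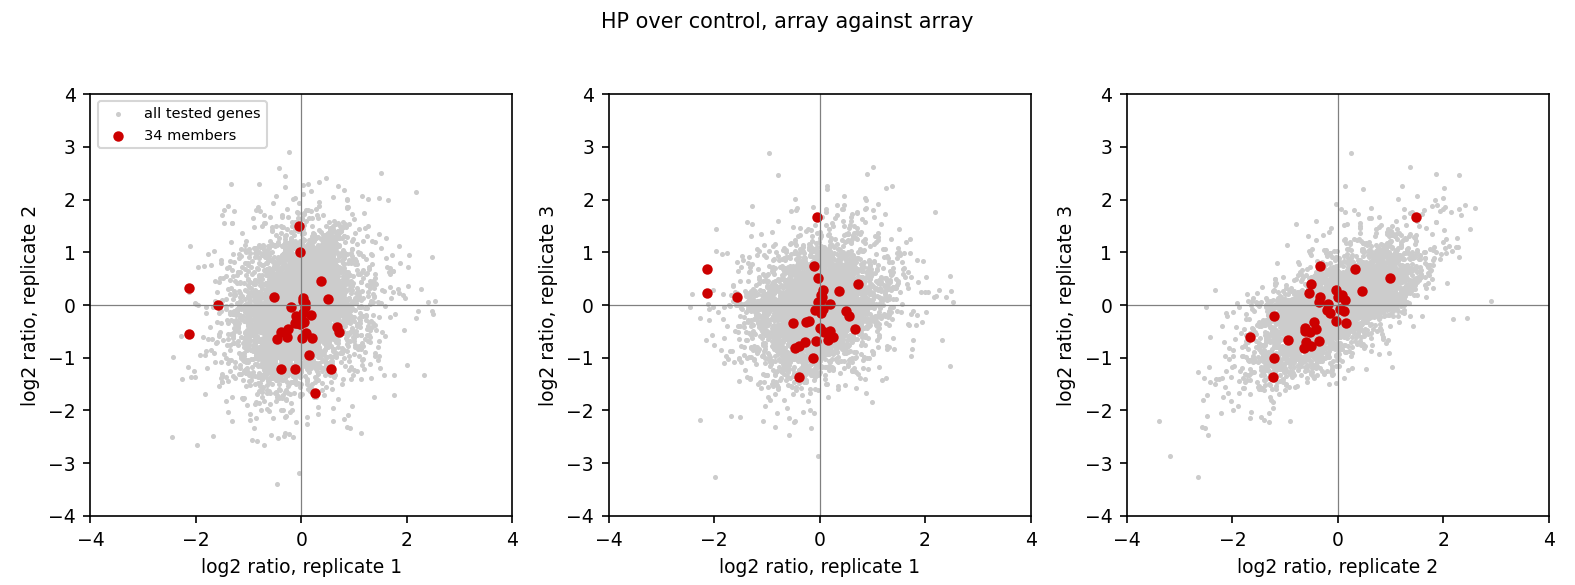
Log2 ratios of HP over control of 1 array against another, with all tested genes in grey and the 34 members in colour. Members fall along the diagonal for arrays 2 and 3 (r = 0.75) and show no such trend against array 1 (r = −0.12 and −0.13).

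Promoters were scanned for letters of motifs that serve many mitochondrial genes, NRF1-type (GCGCA, any base, then GCGC) and GABPA-type (CCGGAAG), on both strands of the 250 bases before to 50 after the start. RefSeq (GRCm38.p6) held promoters of 51 of the 60 members. The NRF1-type letters were in 6 (11.8%), beside 5.19% of 27025 genes and 7.2% of 17492 coding genes. GABPA-type letters were in 18 (35.3%), beside 9.93% and 12.9%. Slc25a3 and Timm8b held both, without overlap of the sites. A match is a description of the letters.

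Median ratios of members with and without the letters were ordered differently for each motif, and the differences were not tested. The 5 measured members with NRF1-type letters had a median ratio of −0.35 and the 25 without had −0.11. For GABPA-type letters the 13 with them had −0.13 and the 17 without had −0.23. Of the 6 members lower at an unadjusted limma p under 0.05, Timm44, Slc25a12 and Slc25a5 gave no match to either motif. Stretches around the matches are shown for the lower members Tomm20, Tomm70a and Timm23 and for Timm8b. Timm8b was higher on all 3 arrays under loess and lower under median centring. The stretches run 5′ to 3′ on the gene's strand in GRCm38.p6, with the motif letters in capitals.
Tomm20 (chr8:126945922-126945966, minus strand; NRF1-type): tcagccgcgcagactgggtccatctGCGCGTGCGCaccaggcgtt
Tomm70a (chr16:57121609-57121665, plus strand; GABPA-type): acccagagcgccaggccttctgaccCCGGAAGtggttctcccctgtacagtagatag
Tomm70a, nearer the start (chr16:57121681-57121713, plus strand; GABPA-type): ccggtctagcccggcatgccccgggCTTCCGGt
Timm23 (chr14:32201907-32201963, minus strand; GABPA-type): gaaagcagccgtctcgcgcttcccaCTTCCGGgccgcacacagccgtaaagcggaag
Timm8b (chr9:50603864-50603900, plus strand; GABPA-type): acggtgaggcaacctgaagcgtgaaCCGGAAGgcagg
Capitals reading CTTCCGG are the GABPA-type letters on the other strand, and the capitals of Tomm20 are the NRF1-type letters on the other strand.

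Other genes of the import and dynamics pathway, which the name rule leaves out, were evenly divided in direction. Of 50 on the array 27 were measured, 14 with means below 0 and 13 above, with a median of −0.04 and 0 past the adjusted threshold. By unadjusted p under 0.05, 2 were lower, beside 11.3% of genes, and 1 was higher, beside 7.26%. Dnajc15, a co-chaperone of the import motor, read 9.95, 9.45 and 9.51 in the HP pools against 10.31, 10.33 and 9.89 in the control pools, a mean ratio of −0.54 ± 0.16. Dnajc19, a second co-chaperone, averaged −0.43 ± 0.13. Mpc1, a subunit of the pyruvate carrier, averaged 0.40 ± 0.13 and −0.65 under median centring. Yme1l1, an inner membrane protease, averaged −0.43 with its brightest probe and −0.18 over its probes. Grpel1, a nucleotide exchange factor of the motor, averaged 0.29. Gdap1, linked to fission, averaged 1.26, with −0.12 on array 1 and 2.04 and 1.87 on arrays 2 and 3. Gdap1 was well above background in 2 of 3 HP pools and 1 of 3 control pools, and its mean was 0.71 over its probes and 3.08 with the scanner's processed log ratio. The import motor list had 10 measured genes with a median of −0.27.

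Some family genes carry other names on the array, so the name rule missed them, and they were chosen after their values were seen. Of 20 such genes 6 were measured. Slc25a33, a pyrimidine nucleotide carrier, had ratios of 0.81, 0.64 and 1.02 and a mean of 0.82 ± 0.13. Its mean was 0.24 under median centring, with an unadjusted limma p of 0.296, and 1.62 with the scanner's processed log ratio. Timm10b, a small TIM of the TIM22 complex, averaged −1.06 ± 0.28, and its second probe −0.20 ± 0.14. Its mean was −0.63 over both probes and −1.77 under median centring. Slc25a39 averaged 0.57, Slc25a51 0.33, Slc25a44 −0.09 and Tomm5 0.00.

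**Figure D5:**
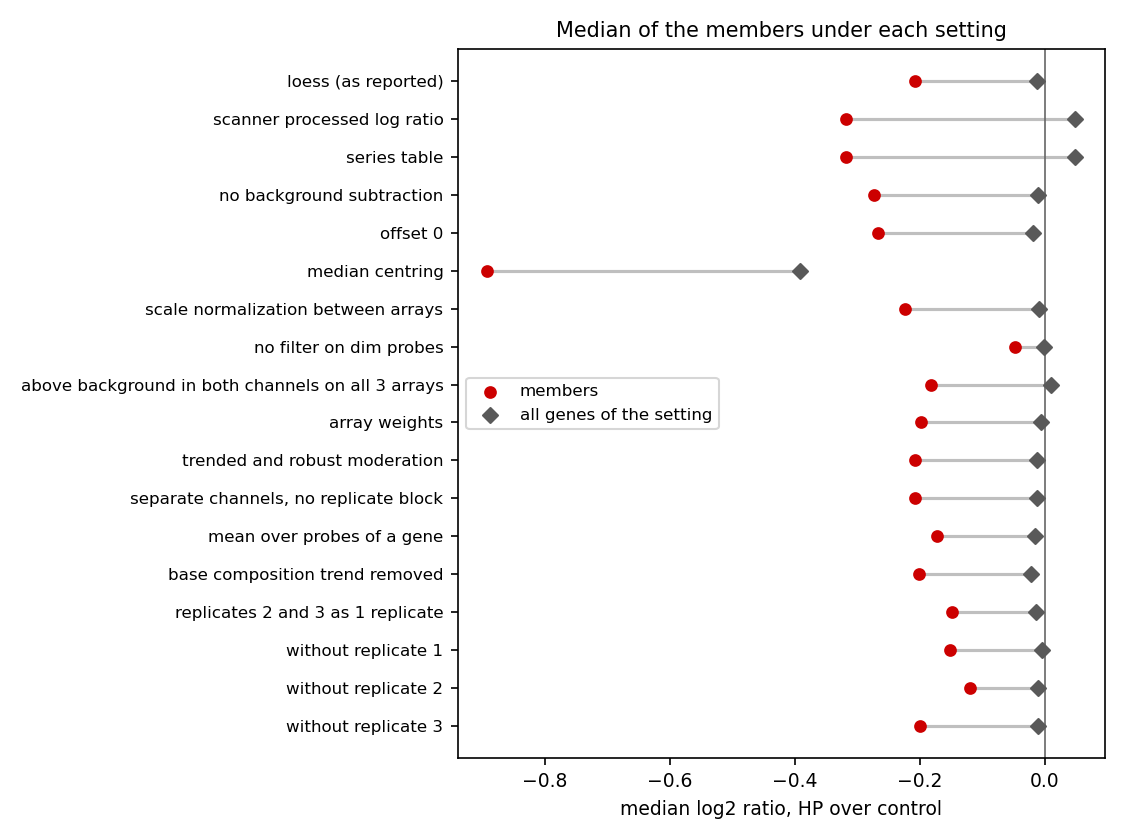
Median log2 ratio of HP over control (x axis) for the members taken in by each processing setting (y axis), beside all genes of that setting. No filter on dim probes takes in 60 members and 27671 genes. The filter on both channels takes in 28 members and 4396 genes. Members' medians stay below 0 and below the all-gene median in every setting shown, from −0.05 with no filter on dim probes to −0.89 with median centring. The series table repeats the scanner's processed log ratio, and trended and robust moderation and separate channels keep the loess ratios.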

How the data were processed

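Spot values came from Agilent Feature Extraction 9.5.1.1, per the file headers. The deposited mean spot signals and the median signals of the local background are raw intensity values. The deposited log ratio is a log10 value of processed Cy5 signal against processed Cy3 signal, per the file headers, and the authors' series table held the same log10 values within 5e-10. Per the labels, 240 pg of RNA per pool was amplified in successive rounds. Array names were updated by RefSeq accession (22951 probes), symbol (6659) or synonym (3109), and 8455 were kept.

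Intensities were corrected with normexp (offset 50) and normalized by loess within arrays in limma 3.58.1 (R 4.3.3, statmod 1.5.0), with control spots at weight 0 and outlier spots left out (208, 172 and 325 on replicates 1, 2 and 3). Spots of a probe were averaged, and a gene was its brightest tested probe. An intercept was fitted to log2 HP over control on all 7248 genes with empirical Bayes moderation and Benjamini-Hochberg adjustment. Channel signals were taken after loess and Aquantile, and the 3 arrays limit the precision. The fit and its adjustment, but not the earlier steps, were tested on simulated log2 ratios drawn independently for each array. The bound for a dim gene sets the brighter group's mean against the higher of its own signal and the lowest signal above background. Members and lists were chosen with earlier results of these data known. Per-array values were named for up to 8 lower and 8 higher members of smallest p that kept 1 sign on all 3 arrays with the brighter channel above background, for fusion, metaxin and prohibitin genes, and for members with probes of opposite sign; 3 met the rule as higher. The 17 alternatives changed the signal or table used, background, normalization, filter, weights, moderation, probe choice, pairing and replicates. The values of 1 carrier are not reported here, though it is counted in the totals.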

Additional observations from a re-analysis of the deposited data

How the results depend on the processing

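Medians of the members stayed below 0 in all 17 alternative settings, from −0.05 with no dim-probe filter to −0.89 with median centring. Without that filter all 60 members were taken in. The series table repeats the scanner's processed log ratio. Trended and robust moderation and separate channels keep the loess ratios, so their median of −0.21 could not move. Counts below are at an unadjusted p under 0.05, with the share of all genes under the same setting. Median centring gave 16 (16 lower, 0 higher, 47.1% of members, 35.7% of genes), 26 of 34 members with 1 sign and 1031 genes past the adjusted threshold. The scanner's processed log ratio and the series table each gave 2 (2 lower, 0 higher), or 5.88% of members beside 17.8% of genes. No background subtraction gave 5 (5 lower, 0 higher), or 14.7% of members beside 20.2% of genes, with 7.88% of genes higher. An offset of 0 gave 4 (0 higher), beside 17.3% of genes. Scale normalization gave 2 (1 lower), beside 14.4%. No dim-probe filter gave 9 (8 lower, 1 higher), or 15% of members beside 7.23% of genes, and 25 of 60 members with 1 sign. Shares of all genes with 1 sign are not given for this setting or for median centring. Array weights gave 13 (10 lower, 3 higher), or 38.2% of members beside 24.0% of genes. Replicates 2 and 3 as 1 replicate gave 2 (2 lower, 0 higher), beside 11.9%. Separate channels with no replicate block gave 8 (18.6% of genes), against 7 with the pairing. Leaving out 1 replicate gave 0 to 15 (0 to 12 lower, 0 to 3 higher; 9.7% to 24.8% of genes), a median of −0.20 to −0.12 and 0 adjusted calls; 1-sign counts were not compared over 2 arrays.

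Some log2 ratios turned sign, judged against 0, while the all-gene median under median centring was itself −0.39. Under median centring they were −0.96 for Timm17a, −0.54 for Timm8b, −0.42 for Timm10, −0.079 for Slc25a28, −0.50 for Slc25a25, −0.25 for Slc25a16, −0.28 for Slc25a26, −0.36 for Mfn1, −0.031 for Mfn2, −0.35 for Mtx2, −0.65 for Mpc1, −0.33 for Grpel1, −0.56 for Slc25a39, −0.43 for Slc25a51 and −0.63 for Tomm5. With the processed log ratio and the series table Slc25a14 gave 0.086 and Mfn1 −0.00034. With no background subtraction Mfn1 gave −0.030 and Tomm5 −0.019, and with offset 0 Mfn1 and Mtx2 gave −0.017 each and Tomm5 −0.016. Scale normalization gave 0.0092 for Slc25a14, −0.017 for Mfn1 and −0.036 for Tomm5. Array weights gave 0.14 for Slc25a32, 0.019 for Slc25a14, −0.025 for Mfn1 and −0.048 for Tomm5. The mean over probes gave −0.014 for Timm17a, and replicates 2 and 3 as 1 gave 0.12 for Slc25a24.

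Leaving out 1 replicate gave ranges that crossed 0 for Timm22 (−0.19 to 0.020), Slc25a11 (−0.79 to 0.076), Slc25a32 (−0.90 to 0.51), Slc25a17 (−0.70 to 0.18), Slc25a24 (−0.43 to 0.13), Slc25a14 (−0.14 to 0.093), Slc25a25 (−0.23 to 0.31), Slc25a26 (−0.053 to 0.56), Mfn1 (−0.016 to 0.051), Mtx2 (−0.081 to 0.11) and Tomm5 (−0.061 to 0.054). The cause was not tested. Of 572 values of members over settings, 458 kept their direction and side of the threshold, 48 lost the call, 30 gained it and 36 turned sign. The settings that repeat a table or keep the loess ratios are counted among them.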
